A study of Mus musculus with 12 samples.

Results

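Kidneys of mice that received 200 µg doses of extracellular vesicles after cisplatin were compared with kidneys of mice that received phosphate-buffered saline (PBS) after the same cisplatin course. The comparison was fixed by the labels: 3 libraries labelled cisplatin plus iMSC-EVs 200 ug (EV200 1, EV200 2 and EV200 3) and 3 labelled cisplatin plus PBS (PBS 1, PBS 2 and PBS 3), 6 of the 12 libraries of the series. All were whole kidney of male wild-type C57BL/6 mice. Both groups carried cisplatin, a platinum drug that damages the renal tubule, at 9 mg/kg intraperitoneally each week for 5 cycles. Both then had 5 intravenous injections at intervals of 3 days, and tissue was taken 3 days after the last. The 3 normal libraries, from mice given neither cisplatin nor vesicles, serve as a reference level, and the remaining 3 libraries (400 µg) entered the fit only. The labels call the libraries biological replicates of 1 batch without tying each to a separate mouse, give no age, and name the vesicle source only as iMSC. Except where libraries are left out, p-values set a difference against the spread within groups over all 12 libraries, whatever its source. The normal and 400 µg libraries thus enter that spread.

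Repeated cisplatin injures the proximal tubule, the segment that reabsorbs most of the filtrate and that takes the drug up. Injured tubule cells lose transport and oxidative genes, switch on repair and adhesion genes, and are followed by macrophages and by fibroblasts that lay down matrix. In whole-kidney RNA, fewer cells of a type and less RNA per cell cannot be told apart.

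Levels are counts per 1e6 counts (CPM), scaled with TMM factors. Total counts, in units of 1e6, were 46.6 to 62.1 in the PBS libraries and 53 to 61.8 in the EV200 libraries, so depth was similar in both groups. The libraries of each group differed widely. Among genes at 1 CPM or more in their group, 762 were more than 2-fold above the EV200 median in EV200 3, against 22 in EV200 1 and 13 in EV200 2. In the PBS group the same count was 293 in PBS 2, 18 in PBS 1 and 45 in PBS 3. On the first principal component of the 6 libraries, with 49.6% of the variance, EV200 1 and EV200 2 lay at -52.6 and -40.9 and PBS 1 at -18.6. PBS 3 lay at 15.6, EV200 3 at 34.5 and PBS 2 at 62, so the groups were interleaved. On the second component, with 14.3% of the variance, EV200 3 lay at 33, farther from the PBS libraries (-25.6, -20.3 and 0.486) than EV200 1 at -12.1 and EV200 2 at 24.5. Results are given library by library. Of the 762 genes high in EV200 3, the PBS mean was more than 2-fold above the normal mean for 607, or 79.7%, against 6.45% of all genes at that level. EV200 3 stayed within the range of the 3 PBS libraries for 512 of the 762 and exceeded it for 249.

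Of 18730 genes tested with edgeR's quasi-likelihood test, 3 had a Benjamini-Hochberg adjusted p under 0.05, or 0.016%. These were Aak1, Gm38495 and LOC115488616, described at the end. At an unadjusted p under 0.05 there were 1293 genes, 3.83% of all higher and 3.08% lower in EV200. DESeq2 called 48 genes, or 0.256%, and limma-voom with library quality weights called 1649, or 8.8%. Each EV200 library lay above each PBS library for 5.53% of genes and below for 4.94%. EV200 1 lay above the 3 PBS libraries for 30.3% of genes and below them for 32%, EV200 2 for 27.8% and 29%, and EV200 3 for 22.7% and 19.8%. Those shares are the background for the counts of list members that follow. Among 550 tested genes of the gene lists, 56 had an unadjusted p under 0.05, and edgeR called the 3 named above. Those 3 form a sample-check list of their own, written with earlier results of these data known. Their place among the list genes is therefore not a result, and edgeR called no member of any other list. DESeq2 called 16 of the 550 and limma-voom 123, the same 3 included.

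Tubular injury genes were lower than in PBS in EV200 1 and EV200 2 and highest of all in EV200 3. Of 22 members, 19 lay below the 3 PBS libraries in EV200 1 and 19 in EV200 2, while in EV200 3 none lay below and 12 lay above. The median log2 ratio to normal over the list was 0.56 and 0.40 in EV200 1 and EV200 2, 1.98 in EV200 3, and 1.04, 1.80 and 1.22 in PBS 1, PBS 2 and PBS 3. The median log2 fold change between the groups was -0.33, against -0.00 over all genes. No member had an unadjusted p under 0.05 by edgeR, DESeq2 called none and limma-voom 10. Without EV200 3, 16 members had an unadjusted p under 0.05, all lower, and the median was -0.96. Without EV200 1 or EV200 2 the median was -0.02 or 0.01.

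Havcr1 encodes KIM-1, a phagocytic receptor that appears on injured proximal tubule cells (chromosome 11, 46739822 to 46779578, GRCm38.p6). It stood at 7.27, 16.1 and 5.36 CPM in the PBS libraries and at 3.77, 1.51 and 26 CPM in the EV200 libraries, with 1.18 to 2.07 CPM in normal kidney. EV200 2 was thus within the normal range and EV200 3 above every PBS library. Lcn2, encoding the secreted siderophore-binding protein NGAL, stood at 7.46, 22.6 and 7.01 CPM in PBS and 2.77, 3.05 and 24.2 CPM in EV200. Spp1, encoding osteopontin, had 758, 1087 and 804 CPM in PBS and 557, 523 and 1326 CPM in EV200. Cd44, the receptor of hyaluronan and osteopontin, had 6.78, 24.5 and 10.9 CPM in PBS and 3.76, 3.31 and 24 CPM in EV200. In these 3 genes EV200 1 and EV200 2 lay below the lowest PBS library, and the groups overlapped only through EV200 3. The adhesion molecule gene Vcam1 followed the same order, with 21.7, 79.9 and 35.1 CPM in PBS and 11.8, 10.6 and 77.9 CPM in EV200. Sox9, a transcription factor gene of regenerating tubule, had 1.55, 5.33 and 2.11 CPM in PBS and 0.82, 0.48 and 2.65 CPM in EV200. Krt8, encoding a keratin of simple epithelia, differed from the rest of the list: 96.4, 97.1 and 98.3 CPM in PBS, the normal level, and 102, 102 and 132 CPM in EV200 (log2 fold change 0.20, SE 0.09).

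**Figure D1:**
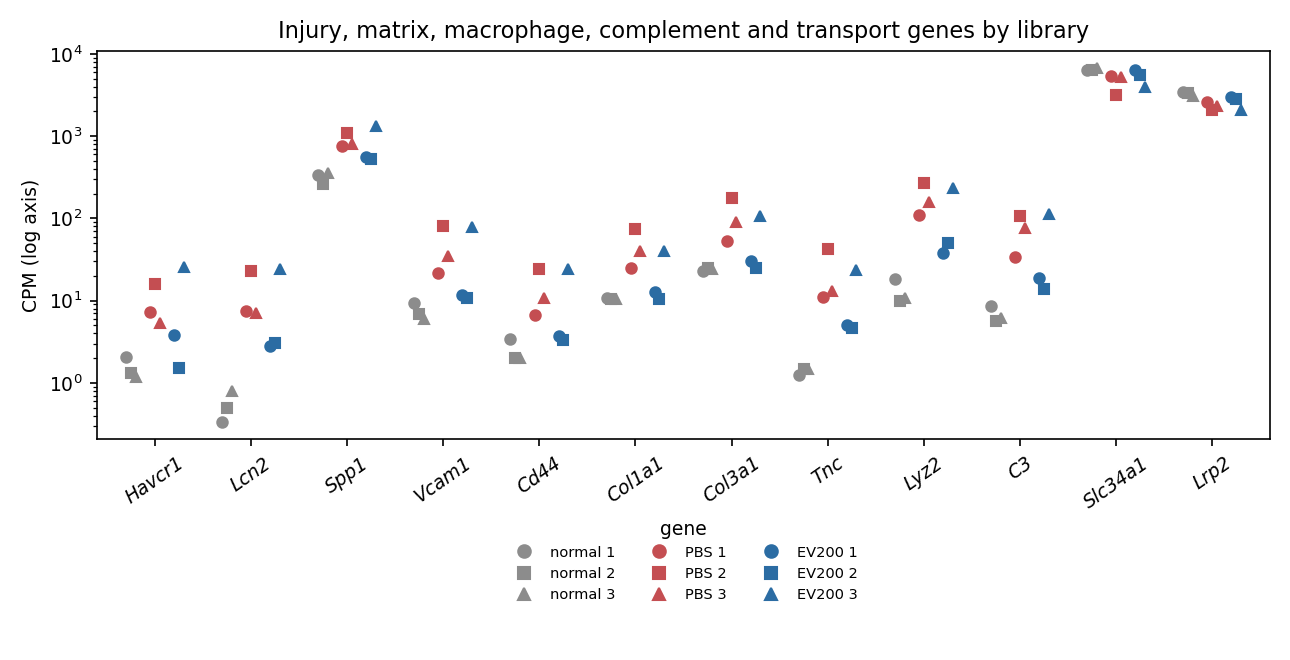
CPM on a log axis for 12 genes in each of the 3 normal, 3 PBS and 3 EV200 libraries, 1 point per library. From Havcr1 to C3, EV200 1 and EV200 2 sit below the PBS libraries. EV200 3 sits within the PBS range for Vcam1, Cd44, Col1a1, Col3a1, Tnc and Lyz2 and above it for Havcr1, Lcn2, Spp1 and C3, and for the transport genes Slc34a1 and Lrp2 the order is turned, with EV200 1 and EV200 2 highest among the cisplatin libraries.

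Matrix genes had a median log2 fold change of -0.74 over 42 members, with 41 of 42 negative. EV200 1 lay below the PBS range for 31 members and EV200 2 for 36. EV200 3 lay below it for 2 and above it for none, so here the library that was highest in injury genes stayed inside the PBS range. By edgeR, 2 members had an unadjusted p under 0.05, both lower. Without EV200 3 there were 30, without PBS 1 18 and without PBS 3 1, while without PBS 2, EV200 1 or EV200 2 there were none. DESeq2 called none and limma-voom 30. The 2 members were Lum, encoding the collagen-binding proteoglycan lumican, and Col6a2, a chain of the microfibrillar collagen VI. Lum had 1.93, 9.46 and 4.80 CPM in PBS and 0.771, 1.68 and 3.94 CPM in EV200 (log2 fold change -1.34, SE 0.57, unadjusted p 0.035). Col6a2 had 10.3, 22.8 and 20 CPM in PBS and 8.22, 6.56 and 15.1 CPM in EV200 (-0.83, SE 0.37, unadjusted p 0.0445). The adjusted p of each was 0.657 by edgeR with Benjamini-Hochberg adjustment.

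Col1a1, the main chain of fibrillar collagen I, stood at 24.7, 74.3 and 39.8 CPM in PBS and 12.6, 10.4 and 40.6 CPM in EV200, against 10.4 to 10.9 CPM in normal kidney. EV200 2 had the normal level and EV200 3 that of PBS 3. The fibrillar collagen gene Col3a1 had 53.7, 176 and 89.6 CPM in PBS and 30.4, 24.8 and 106 CPM in EV200. Tnc, encoding tenascin C of provisional matrix, had 11.1, 42.3 and 13.2 CPM in PBS and 5.05, 4.65 and 23.9 CPM in EV200. These 3 genes had EV200 1 and EV200 2 below each PBS library. Lox, encoding the enzyme that crosslinks collagen and elastin, had 3.52, 14.9 and 6.20 CPM in PBS and 1.85, 2.01 and 6.99 CPM in EV200. Col8a1, a network-forming collagen gene outside the list, was below PBS in all 3 libraries, with 7.02, 11.2 and 8.77 CPM in PBS and 5.91, 5.10 and 5.03 CPM in EV200 (log2 fold change -0.75, SE 0.21). Timp3, an abundant protease inhibitor gene of normal tubule basement membrane, stood at 2184, 2438 and 2424 CPM in PBS and 2371, 2322 and 1907 CPM in EV200.

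Of 12 genes of pericytes and myofibroblasts, the contractile matrix-producing cells, 8 lay below the PBS range in EV200 1, 7 in EV200 2 and none in EV200 3. The median was -0.43, no member had an unadjusted p under 0.05 by edgeR, DESeq2 called none and limma-voom 4. Acta2, encoding smooth muscle actin, had 20.3, 40.9 and 40.2 CPM in PBS and 17.7, 24 and 39.9 CPM in EV200.

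Among 17 genes of TGF-beta, activin and BMP signalling, the main profibrotic pathway, 1 was higher and 4 were lower at an unadjusted p under 0.05. Neither edgeR nor DESeq2 called any after adjustment, and limma-voom called 4. The counts of these 5 rested on single libraries, with 11 members without EV200 3, 1 without EV200 2 and 2 without PBS 2. The ligand gene Tgfb1 had 9.84, 17.5 and 12.7 CPM in PBS and 10.1, 8.53 and 12 CPM in EV200. Tgfbr1, the type I receptor gene, was below PBS in every EV200 library, at 62.4, 89.1 and 68 CPM in PBS and 56.1, 58.9 and 60.1 CPM in EV200 (log2 fold change -0.33, SE 0.12). Normal kidney had 55.7 to 62.1 CPM. Smad7, encoding the inhibitory SMAD that the pathway itself induces, had 18.4, 20.4 and 18.6 CPM in PBS and 17.4, 15 and 16.6 CPM in EV200. Smad3, encoding the signal-transducing SMAD, lay the other way, at 38.2, 41 and 37.7 CPM in PBS and 42.1, 49 and 43.4 CPM in EV200. Gdf15, a stress-induced member of the ligand family, had 4.95, 4.17 and 3.94 CPM in PBS and 3.33, 2.84 and 3.20 CPM in EV200, below normal kidney as well (3.90 to 4.86 CPM). The groups did not overlap in these 4 genes, EV200 3 included, and the largest of their differences was 0.48 on the log2 scale.

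**Figure D2:**
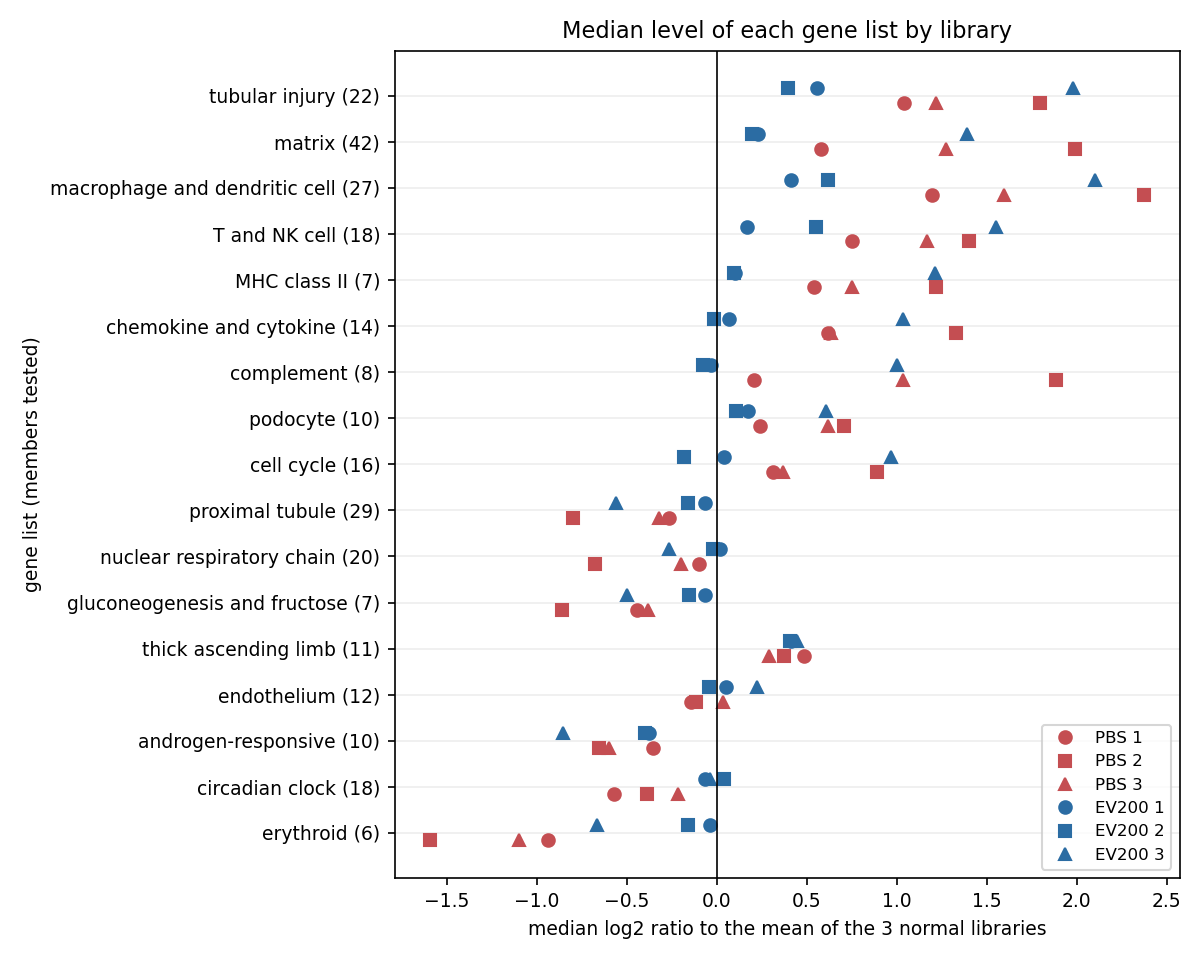
Median log2 ratio of each gene list to the mean of the 3 normal libraries (x axis), by list with the number of tested members (y axis), for 3 PBS and 3 EV200 libraries. For the plotted injury, matrix, macrophage, T and NK cell, MHC class II, chemokine and complement lists EV200 1 and EV200 2 lie nearest to 0 and EV200 3 lies among or above the PBS libraries, whereas for the clock and erythroid lists all 3 EV200 libraries lie to the right of all 3 PBS libraries.

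Macrophage genes had a library order like that of the injury genes, while no B and plasma cell gene lay above the PBS range in EV200 3. Of 27 genes of macrophages and dendritic cells, 26 lay below the PBS range in EV200 1 and 24 in EV200 2, and 7 lay above it in EV200 3. The median log2 ratio to normal was 0.41 and 0.62 in EV200 1 and EV200 2, below the 1.20 to 2.37 of the PBS libraries, and EV200 3 lay within that PBS range. In EV200 3, 21 of the 26 members at 1 CPM or more were over 2-fold above the EV200 median. The group median was -0.63, no member had an unadjusted p under 0.05 by edgeR (20 without EV200 3), DESeq2 called none and limma-voom 14. Lyz2, encoding lysozyme of macrophages, had 109, 268 and 156 CPM in PBS and 38.1, 49.9 and 236 CPM in EV200, against 9.96 to 18.4 CPM in normal kidney. Gpnmb, a gene of lipid-laden phagocytes, had 8.66, 24.2 and 19.5 CPM in PBS and 2.04, 3.84 and 15.2 CPM in EV200, with no more than 0.144 CPM in normal. Both genes were therefore above normal in EV200 1 and EV200 2 too. Csf1r, encoding the receptor that keeps resident macrophages alive, had 89, 105 and 85.8 CPM in PBS and 80.5, 80.6 and 106 CPM in EV200.

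All 7 MHC class II genes, which present peptide antigens, lay below the PBS range in EV200 1, 6 did in EV200 2, and 5 lay above it in EV200 3. H2-Aa had 142, 248 and 179 CPM in PBS and 85.5, 100 and 273 CPM in EV200. Of 18 T and NK cell genes, 15 and 12 lay below the PBS range in EV200 1 and EV200 2. Most were near 1 CPM, for example Cd3e at 0.787, 2.01 and 1 CPM in PBS and 0.476, 0.72 and 1.59 CPM in EV200. Retnla, a marker of alternatively activated macrophages and named for its spread within EV200, had 3.69, 6.09 and 5.27 CPM in PBS and 0.525, 0.111 and 11.1 CPM in EV200, with no count in normal kidney. Of 14 tested chemokine and cytokine genes, 12 and 13 were below the PBS range in EV200 1 and EV200 2 and 6 were above it in EV200 3. Ccl2, which draws monocytes, had 1.66, 3.26 and 2.24 CPM in PBS and 1, 0.388 and 4.26 CPM in EV200. The complement list had a median of -0.66, with 7 of 8 members below the PBS range in EV200 1 and 7 in EV200 2. C3, the central complement component, had 34.1, 108 and 75.5 CPM in PBS and 18.8, 13.7 and 112 CPM in EV200. In these 4 lists no member had an unadjusted p under 0.05 by edgeR and DESeq2 called none, while limma-voom called 1, 2, 4 and 6, in the order given. The 9 B and plasma cell genes had 4 members below the PBS range in EV200 1, 4 in EV200 2 and 2 in EV200 3, with 1, 3 and 0 above. Their median log2 ratio to normal was 0.07, 0.07 and 0.24 in EV200 1, EV200 2 and EV200 3, each below the 0.29 to 0.85 of the PBS libraries. Interferon-stimulated genes differed less, with 5 and 6 of 13 below the PBS range in EV200 1 and EV200 2 and a median of -0.07.

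Proximal tubule genes were above the PBS range in EV200 1 and EV200 2 and mostly within it in EV200 3. Of 29 members, 26 lay above in EV200 1 and 20 in EV200 2, and in EV200 3 1 lay above and 7 below. The group median was 0.18, 2 members had an unadjusted p under 0.05, edgeR and DESeq2 called none after adjustment and limma-voom 4. Without EV200 3, 15 had an unadjusted p under 0.05, all higher, and without PBS 2 none had. Slc34a1, encoding the main phosphate cotransporter of the brush border, had 5387, 3176 and 5173 CPM in PBS and 6440, 5596 and 4007 CPM in EV200. Lrp2, encoding the endocytic receptor megalin, had 2582, 2062 and 2341 CPM in PBS and 2976, 2859 and 2058 CPM in EV200. For both genes EV200 1 and EV200 2 exceeded each PBS library and EV200 3 did not. Aqp1, encoding the water channel of the proximal tubule and thin limb, was the one member above PBS in all 3 libraries, at 739, 473 and 639 CPM in PBS and 828, 897 and 754 CPM in EV200 (log2 fold change 0.42, SE 0.15).

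Respiratory chain and gluconeogenesis genes had a library order like that of the proximal tubule genes, and cholesterol and glycolysis genes did not. All 20 nuclear-encoded respiratory chain genes had a positive log2 fold change, with a median of 0.21. EV200 1 lay above the PBS range for 19 of them, EV200 2 for 17 and EV200 3 for 2. Ndufb8, a complex I subunit gene, had 210, 133 and 195 CPM in PBS and 238, 229 and 209 CPM in EV200, and was the 1 member with an unadjusted p under 0.05 (DESeq2 and limma-voom called none). The list median was 0.07 without PBS 2. All 7 gluconeogenesis and fructose genes lay above the PBS range in EV200 1 and in EV200 2, and 1 did in EV200 3. Pck1, the gatekeeper enzyme of gluconeogenesis, had 642, 638 and 909 CPM in PBS and 1199, 1109 and 761 CPM in EV200. Slc2a5, the fructose transporter gene, had 74.8, 48.7 and 79 CPM in PBS and 103, 93.6 and 80 CPM in EV200, so that EV200 3 was level with PBS 3. The 12 cholesterol genes had a median of 0.04, with 4, 2 and 1 above the PBS range in EV200 1, EV200 2 and EV200 3 and 2 below it in each. Of 13 glycolysis genes, 7, 3 and 3 lay above the PBS range and 1, 2 and 0 below. Among 16 fatty acid oxidation genes, 2 had an unadjusted p under 0.05, and edgeR and DESeq2 called none after adjustment. That count was 0 without PBS 1, PBS 2, EV200 1 or EV200 2, 4 without PBS 3 and 5 without EV200 3. The 2 genes, in both of which the groups overlapped through EV200 3, were Ppara, the receptor that drives the pathway, at 115, 106 and 126 CPM in PBS and 165, 172 and 117 CPM in EV200, and Cpt1a, encoding its mitochondrial entry enzyme, at 445, 434 and 560 CPM in PBS and 601, 596 and 512 CPM in EV200.

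**Figure D3:**
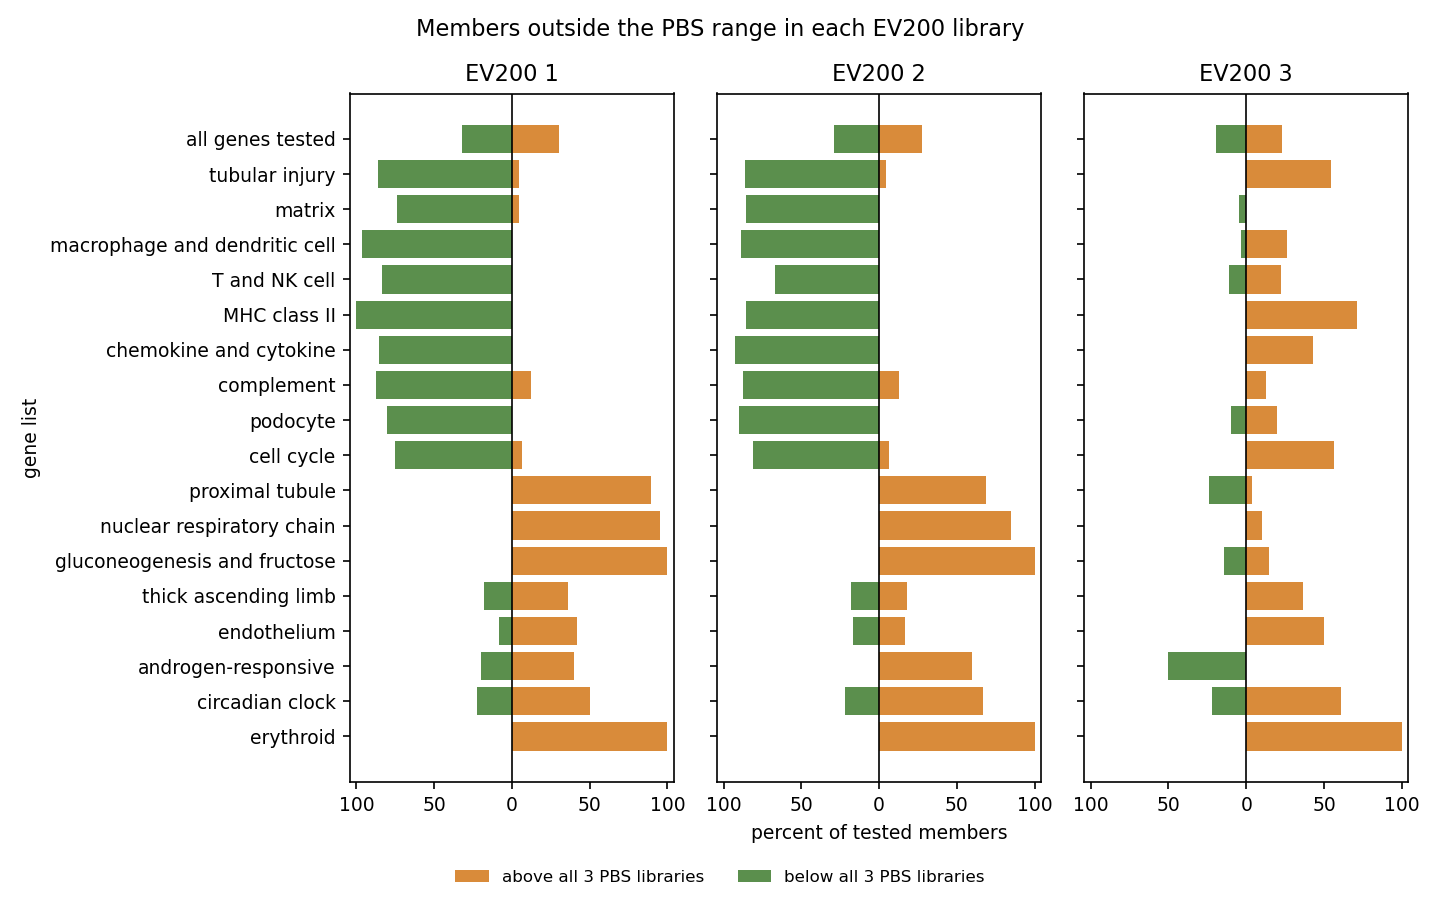
Percent of tested members of each list that lie above all 3 PBS libraries (bars to the right) or below all 3 (bars to the left), in EV200 1, EV200 2 and EV200 3, with all 18730 tested genes in the top row. From the injury to the cell cycle list the bars of EV200 1 and EV200 2 point mainly to the left, EV200 3 has no bar to the left in the injury list and only short ones in the macrophage and T cell lists, and the erythroid bars reach 100 percent in each panel.

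Not every tubule list took part. The 11 thick ascending limb genes, which dilute the urine, had a median of 0.05 and no member at an unadjusted p under 0.05 by edgeR, with none called by DESeq2 or limma-voom. Umod, encoding uromodulin, had 2825, 2195 and 2459 CPM in PBS and 2880, 2658 and 2954 CPM in EV200. The 6 distal convoluted tubule genes were split by library. In EV200 1, 3 lay above the PBS range, and in EV200 3, 4 lay below it, against 30.3% and 19.8% of all genes. Their median log2 ratio to normal was 0.46, 0.29 and -0.21 in EV200, and 0.33, 0.12 and 0.38 in PBS. No member had an unadjusted p under 0.05 by edgeR. The 10 androgen-responsive genes of the proximal tubule had a median of 0.06 but were split by library. In EV200 1, EV200 2 and EV200 3, 4, 6 and 0 lay above the PBS range and 2, 0 and 5 below. Of all genes, 27.8% lay above in EV200 2 and 19.8% below in EV200 3. Androgen-responsive genes that were far below normal in PBS remained so. Srd5a2, encoding steroid 5-alpha-reductase type 2, had 25.8, 23.4 and 21.9 CPM in PBS and 19, 24.8 and 25.4 CPM in EV200, against 50.1 to 67.5 CPM in normal kidney. Slco1a1, an organic anion transporter gene, had 508, 485 and 465 CPM in PBS and 429, 487 and 421 CPM in EV200, with 736 to 780 CPM in normal. Cell cycle genes were split by library, with 12 and 13 of 16 below the PBS range in EV200 1 and EV200 2 and 9 above it in EV200 3. Mki67, a proliferation marker gene, had 6.71, 17.1 and 6.23 CPM in PBS and 5.15, 2.88 and 12.7 CPM in EV200. The 10 podocyte genes, of the glomerular filter, had 8 and 9 members below the PBS range in EV200 1 and EV200 2 and a median of -0.28.

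In the collecting duct, intercalated cell and p53 target lists, single genes differed in all 3 EV200 libraries. The groups did not overlap in 1 of 11 collecting duct genes, which was higher. The same held for 1 higher and 1 lower gene of 9 intercalated cell genes, and for 1 lower gene of 16 p53 targets. Over all genes the shares were 5.53% higher and 4.94% lower, so these genes are described singly and not as a result about their lists. Aqp4, encoding the basolateral water channel of the collecting duct, had 18.9, 14.3 and 10.4 CPM in PBS and 26.8, 28.8 and 31.1 CPM in EV200, a log2 fold change of 0.99 (SE 0.26), adjusted p 0.629 by edgeR and 0.0478 by DESeq2. The collecting duct genes Aqp2 and Aqp3 overlapped between the groups. Foxi1, the transcription factor gene that specifies intercalated cells, had 31.2, 30.5 and 29.2 CPM in PBS and 23.5, 25.5 and 25.2 CPM in EV200 (-0.29, SE 0.09). Atp6v1g3, a proton pump subunit gene of those cells, was higher instead, at 31, 24 and 28.9 CPM in PBS and 34.5, 38.8 and 31 CPM in EV200 (0.32, SE 0.13), EV200 3 being level with PBS 1. Trp53inp1, a p53 target gene of autophagy and cell death, had 55, 74.9 and 55 CPM in PBS and 43.6, 44.9 and 50 CPM in EV200 (-0.42, SE 0.13). Of 16 p53 targets, 1 was higher and 1 lower at an unadjusted p under 0.05, and Cdkn1a, encoding the inhibitor p21, kept the injury order with 7.21, 13.3 and 7.47 CPM in PBS and 4.35, 3.75 and 10.5 CPM in EV200.

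Circadian clock genes set the 3 EV200 libraries apart from PBS. Their median log2 ratio to normal was -0.06, 0.04 and -0.04 in EV200 1, EV200 2 and EV200 3. In PBS 1, PBS 2 and PBS 3 it was -0.57, -0.39 and -0.21. The mammalian clock is a feedback loop: the activators BMAL1 (Arntl) with CLOCK or NPAS2 bind E-box letters CACGTG and turn on their own repressors (the Per and Cry genes, Ciart) and output factors such as Dbp and Tef. DBP and TEF act through D-box sites, and the nuclear receptors ROR and REV-ERB act on Arntl through sites that hold GGTCA. The search pattern TNGGTCA took any base at N and is therefore loose. Stretches upstream of a RefSeq transcript start are shown for 3 clock genes, since they carry these letters, with each match in capitals (GRCm38.p6, both strands searched over 250 bases).
Ciart E-box, chr3:95882247-95882364, minus strand: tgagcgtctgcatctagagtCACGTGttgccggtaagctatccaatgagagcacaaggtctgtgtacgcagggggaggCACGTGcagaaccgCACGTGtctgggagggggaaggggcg
Per3 D-box-like, chr4:151044796-151044890, minus strand: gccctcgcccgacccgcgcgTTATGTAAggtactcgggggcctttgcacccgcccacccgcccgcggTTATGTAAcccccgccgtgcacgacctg
Arntl RORE-like, chr7:113207245-113207310, plus strand: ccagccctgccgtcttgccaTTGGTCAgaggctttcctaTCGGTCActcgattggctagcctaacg
Ciart holds 3 E-boxes between 116 and 44 bases before the start, Per3 holds 2 matches to TTATGNAA and Arntl 2 to TNGGTCA. Of all 32851 promoters in the table, 6.02% hold CACGTG, 3.07% TTATGNAA and 9.19% TNGGTCA in the same window. Of 20 promoters of 15 clock genes, 6 hold CACGTG, 2 TTATGNAA and 6 TNGGTCA. Binding was not measured, and a match describes letters only, not a site of the factors named.

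Of the 18 clock genes, 8 were higher and 4 lower at an unadjusted p under 0.05, and in those 12 no EV200 library overlapped a PBS library. The median was 0.31. None was called by edgeR after adjustment, DESeq2 called 6 and limma-voom 10. The count of 12 was 11 to 13 when any 1 of the 6 libraries was left out, EV200 3 and PBS 2 included. Without PBS 3, edgeR called Cry2, Dbp, Ciart and Tef, with adjusted p of 0.021, 0.014, 0.022 and 0.0405 after Benjamini-Hochberg adjustment.

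The activators were lower. Arntl (chromosome 7, 113178471 to 113314126) had 16.2, 10.5 and 7.33 CPM in PBS and 5.50, 3.51 and 3.32 CPM in EV200, with 3.18 to 3.27 CPM in normal kidney (log2 fold change -1.46, SE 0.31). Npas2 had 13.6, 8.77 and 5.31 CPM in PBS and 4.56, 2.81 and 3.10 CPM in EV200 (-1.40, SE 0.32). Normal kidney had 3.31 to 4.02 CPM of Npas2. Clock had 67.6, 75.9 and 59.5 CPM in PBS and 56.5, 55 and 53.7 CPM in EV200. Nfil3, encoding a repressor at D-box sites, was lower too, at 6.32, 2.69 and 2.78 CPM in PBS and 2.36, 1.53 and 2.37 CPM in EV200.

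Of the repressors, Cry2, the Per genes and Ciart were higher. Cry2 (chromosome 2, 92403646 to 92434085) had 12.1, 12.9 and 16.7 CPM in PBS and 24.7, 27.3 and 23.5 CPM in EV200, a fold change of 1.80 (log2 0.85, SE 0.13) with adjusted p 0.1 by edgeR and 4.51e-06 by DESeq2. That was the smallest adjusted p among the genes edgeR did not call. Per3 had 18.9, 21.5 and 28.9 CPM in PBS and 37.2, 44.3 and 41.3 CPM in EV200 (log2 0.82, SE 0.16), and Per2 had 10.9, 19.3 and 22.5 CPM in PBS and 34, 31.6 and 27.4 CPM in EV200 (0.82, SE 0.22). Ciart, encoding a repressor of the BMAL1 complex, had 1.01, 2.02 and 4.34 CPM in PBS and 7.92, 7.96 and 7.40 CPM in EV200 (1.65, SE 0.37). In each of these genes the PBS libraries spread more than the EV200 libraries. Per1 had 15.5, 16.4 and 18.9 CPM in PBS and 33.4, 19.3 and 27.5 CPM in EV200. Cry1 did not separate the groups, with 1.55, 2.46 and 1.34 CPM in PBS and 1.67, 1.66 and 2.33 CPM in EV200. Of the REV-ERB genes, Nr1d1 overlapped, at 92, 71.1 and 105 CPM in PBS and 95.9, 111 and 97.7 CPM in EV200. Nr1d2 did not overlap, at 91.1, 126 and 133 CPM in PBS and 141, 162 and 152 CPM in EV200. Bhlhe40 and Bhlhe41 overlapped between the groups.

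Among the output factors, Dbp had 15.1, 26.1 and 52.6 CPM in PBS and 73.5, 90.6 and 87.5 CPM in EV200, with 84.4 to 90.2 CPM in normal (log2 fold change 1.42, SE 0.32). Tef had 173, 183 and 266 CPM in PBS and 327, 349 and 280 CPM in EV200 (0.62, SE 0.15). Hlf, the third factor of that family, overlapped through EV200 3, at 85.1, 102 and 102 CPM in PBS and 133, 128 and 90.7 CPM in EV200. PBS 3 was the PBS library nearest to EV200 in Arntl, Npas2, Cry2, Per3, Per2, Dbp, Tef and Ciart. The labels give no hour of collection, and a difference in the clock cannot be told apart from a difference in the hour at which the groups were sampled.

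Globin and heme genes of red cells were higher in every EV200 library than in every PBS library. Of 8 listed genes, 7 were in the table and 6 were tested. All 6 had an unadjusted p under 0.05, with a median of 0.96, and 5 or 6 did when any 1 library was left out. After adjustment edgeR called none, DESeq2 called 5 and limma-voom 5. Hba-a2, an alpha globin gene (chromosome 11, 32296492 to 32297310), had 110, 66.6 and 98.1 CPM in PBS and 223, 191 and 126 CPM in EV200 (log2 fold change 0.98, SE 0.24). Hbb-bs, a beta globin gene, had 146, 92.1 and 130 CPM in PBS and 266, 265 and 179 CPM in EV200 (0.95, SE 0.23). Alas2, the erythroid enzyme that begins heme synthesis, had 6.32, 5.98 and 6.28 CPM in PBS and 13.5, 12.2 and 8.49 CPM in EV200 (0.88, SE 0.22). EV200 3 was the lowest EV200 library in these 3 genes, while EV200 1 and EV200 2 stood near normal. The alpha globin pair and the beta globin pair are near-identical copies, so their reads may be split unevenly. Blood held in the tissue was not measured, and its part in these values was not tested.

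**Figure D4:**
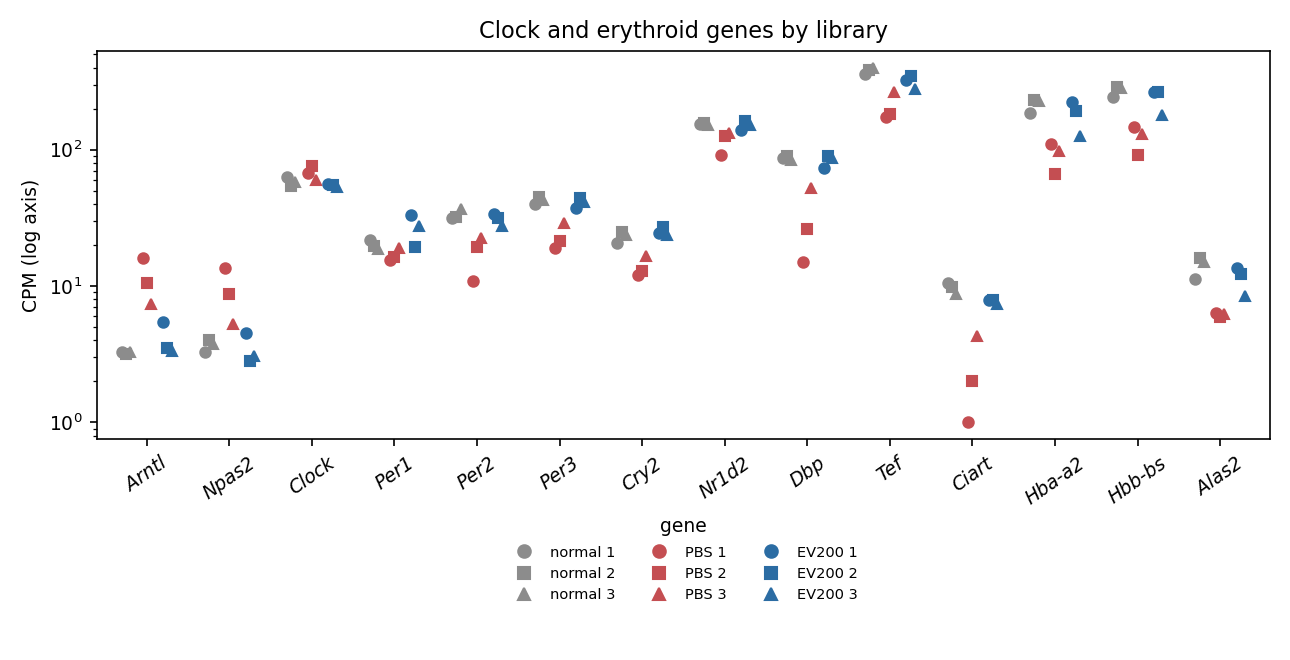
CPM on a log axis for 11 clock genes and 3 erythroid genes in the 3 normal, 3 PBS and 3 EV200 libraries, 1 point per library. The EV200 points lie below all PBS points for Arntl, Npas2 and Clock and above them for the other 11 genes. Clock genes not drawn include Cry1, Nr1d1, Hlf and Bhlhe41, in which the groups overlap.

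Over all genes, 1036 had each EV200 library above each PBS library and 925 had each below, or 5.53% and 4.94%. Some of these, from other lists or outside the lists, are named here as examples, and the lack of overlap alone does not set them apart. Slc16a1, encoding the lactate and pyruvate carrier MCT1, had 50, 36.6 and 34 CPM in PBS and 27.1, 21.7 and 19.6 CPM in EV200 (log2 fold change -0.82, SE 0.15, adjusted p 0.371 by edgeR and 0.000818 by DESeq2). Its EV200 values lay below normal kidney (28.9 to 30.8 CPM). Hspa8, the constitutive heat shock chaperone, had 1830, 1742 and 1903 CPM in PBS and 2527, 2418 and 2145 CPM in EV200 (0.37, SE 0.10, adjusted p 0.652 by edgeR and 0.0192 by DESeq2). The inducible chaperone genes Hspa1a and Hspa1b overlapped between the groups, with log2 fold changes of -0.03 and -0.00. Hk1, encoding hexokinase 1, had 107, 94.7 and 101 CPM in PBS and 138, 112 and 120 CPM in EV200. Igfbp1, an insulin-regulated binding protein gene, had 3.23, 2.61 and 5.81 CPM in PBS and 6.48, 13.2 and 7.72 CPM in EV200. Kcnt1, a sodium-activated potassium channel gene, had 13.2, 11.2 and 10.2 CPM in PBS and 30.6, 21.9 and 18.1 CPM in EV200 (1.03, SE 0.26, adjusted p 0.609 by edgeR and 0.028 by DESeq2). Dtx4, a Notch pathway ubiquitin ligase gene, had 30.6, 40.4 and 31.3 CPM in PBS and 13.6, 15 and 26.7 CPM in EV200, so EV200 3 again stood nearest to PBS.

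The kidney N-acetyltransferase cluster on chromosome 6 and a mitochondrial ribosomal RNA were chosen after their values were seen. Nat8f6 had 72, 43.7 and 78.7 CPM in PBS and 135, 134 and 102 CPM in EV200, with 150 to 168 CPM in normal (log2 fold change 0.93, SE 0.20, adjusted p 0.589 by edgeR and 0.00499 by DESeq2). Nat8f3, Nat8f5 and Nat8f7 had 0.84, 0.81 and 0.84, also without overlap, and Nat8 itself had 0.53. These neighbours are close paralogs whose reads may be shared. The 16S ribosomal RNA gene mt-Rnr2 had 811, 1156 and 741 CPM in PBS and 548, 572 and 552 CPM in EV200 (-0.69, SE 0.16). Mitochondrial protein-coding genes, which leave out mt-Rnr2, held 14.7, 18.1 and 15.2% of all counts in PBS and 14.2, 16.4 and 15.9% in EV200.

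Some values belonged to single libraries. Adipocyte genes were high in PBS 3, for example the complement factor D gene Cfd: 24.2 CPM, where PBS 1 had 0.435 CPM and PBS 2 none. The adipocyte list summed to 191 CPM there and to between 50.6 and 71.8 CPM in the 5 other libraries compared. Its part in other results was not tested. Antibody gene segments marked single libraries as well: Igkv12-89 had 28.8 CPM in EV200 1 and no count in EV200 2 and EV200 3, and Igkv4-72 had 20.9 CPM in PBS 2 against 1.20 and 2.71 CPM in PBS 1 and PBS 3. Cyp27b1, the enzyme that makes active vitamin D, had 27.8 CPM in EV200 1 against 4.19 and 6.09 CPM in EV200 2 and EV200 3. Urothelial genes, which can enter with the renal pelvis, summed to 11.4, 28.5 and 23.1 CPM in PBS and 3.86, 18 and 30.1 CPM in EV200, with 2.81 to 4.36 CPM in normal. EV200 1 was the low library there, and 7 of the 8 members at 1 CPM or more were over 2-fold below the EV200 median. Summed muscle genes reached at most 0.187 CPM and adrenal genes 1.68 CPM in any of the 9 libraries, and Th, Cyp21a1 and Myh4 had no count.

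The 3 genes called by edgeR stood outside the pathways above. Aak1, encoding a kinase of clathrin-mediated endocytosis (chromosome 6, 86849274 to 87003227), rose from 46.6, 26 and 38.6 CPM in PBS to 93, 100 and 88.1 CPM in EV200 (log2 fold change 1.34, SE 0.16, adjusted p 0.0202). Gm38495, listed by RefSeq as an older name of Aak1, fell from 40.6, 72.4 and 50.8 CPM to 0.541, 0.425 and 0 CPM. The PBS libraries were the only ones of all 12 with more than 1 CPM of Gm38495. When the counts of both models were summed, a choice made after seeing the data, the log2 fold change was 0.04 (SE 0.09, edgeR adjusted p 0.884), and edgeR called 1 gene in all. The 2 models thus differed in opposite directions, and their total did not differ beyond the spread between libraries. Without PBS 3 or any 1 of the EV200 libraries the call of Aak1 was lost (edgeR adjusted p 0.0505 to 0.205). The call of Gm38495 was lost without PBS 2, PBS 3, EV200 1 or EV200 2. LOC115488616 was called whichever of the libraries compared was left out, but not with the filter of at least 1 CPM in 3 libraries. With only the PBS and EV200 libraries in the fit, or with the replicate block, edgeR called 0 genes, with 607 and 1141 at an unadjusted p under 0.05. LOC115488616, a provisional model, had 23, 36 and 21 counts in the PBS libraries and 0 in each EV200 library, with 20 to 26 counts in the 6 other libraries. Against the highest floor that 3 counts per library set in EV200, 0.0554 CPM, the PBS mean was at least 8.11-fold higher. The cause was not tested. Whether every group was quantified with the same transcript models cannot be told from the files, and all 3 calls are read with that limit.

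**Figure D5:**
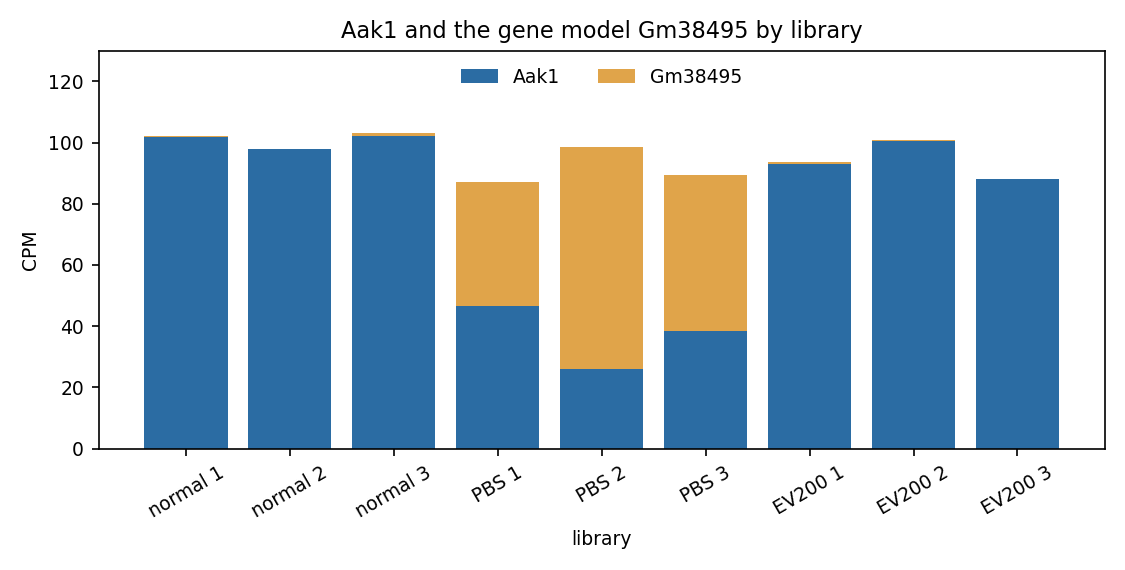
CPM of Aak1 (lower part of each bar) and Gm38495 (upper part) in 9 libraries. Gm38495 takes 40.6 to 72.4 CPM in the PBS libraries and less than 1 CPM in the others, while the summed bars lie between 87.2 and 103 CPM.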

How the data were processed

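Whole-kidney poly(A) RNA was sequenced in 12 libraries with a stranded kit, per the labels' protocols. Per the submitters' processing notes, HISAT2 2.1.0 and the builds GRCm38 and mm10 are named beside StringTie 2.1.3b, Trimmomatic 0.38 and FastQC 0.11.7. How reads were counted, and on which strand and annotation, is not given in these sources. Whole-number read counts for 45777 genes, deposited by the authors, were used as they stand, and 24 columns of FPKM and TPM values were not used. In R 4.3.3, edgeR 4.0.16 fitted all 12 libraries (TMM, default filter by group, quasi-likelihood, 8 residual degrees of freedom), which tested EV200 minus PBS in 18730 genes with Benjamini-Hochberg adjustment. DESeq2 1.42.0 and limma-voom (limma 3.58.1) with quality weights were alternatives. The test was run on simulated data first. Coordinates and promoter sequences are from RefSeq tables of GRCm38.p6.

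The 48 gene lists (575 genes, 573 in the table, 550 tested) and the rule for named genes were chosen with earlier results of these data known. The rule took called genes, in each direction the 10 widest changes among genes with unadjusted p under 0.05, at least 5 CPM and no overlap, lead genes of each list with its 3 smallest p, and up to 10 genes per group with the widest spread at 10 CPM or more. Ratios to normal add 0.1 CPM. Other list members named are described as examples, chosen after their values were seen.

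Replicate numbers were not used as pairs. For each library the deviation of log2 CPM from its group mean was taken. The correlations of these deviations between same-numbered PBS and EV200 libraries were 0.34, -0.30 and -0.07.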

Additional observations from a re-analysis of the deposited data

How the results depend on the processing

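The count of called genes, 3, was 48 with DESeq2, 1649 with limma-voom and 0 with only the PBS and EV200 libraries in the fit. It was 0 with the replicate block, and 1 with the counts of Aak1 and Gm38495 summed. Leaving out 1 library gave 1 to 6, with 1 without EV200 1 or EV200 2 and 6 without PBS 3. Other scaling factors and no low-count filter gave 3, and a stricter filter or a minimum log2 fold change of 1 gave 2. Dropping PBS 3 or any EV200 library ended the call of Aak1, with edgeR adjusted p values between 0.0505 and 0.205. Dropping PBS 2, PBS 3, EV200 1 or EV200 2 ended that of Gm38495. Limma-voom weighted PBS 2 and EV200 3 at 0.163 and 0.283 and PBS 3 and EV200 2 at 3.47 and 2.97, so its calls lean on the latter pair. Unadjusted p under 0.05 by edgeR was reached by 1293 genes. That count was 3303 without EV200 3, 2820 without PBS 1 and 1525 without PBS 3. It was 874 without EV200 1, 711 without EV200 2 and 651 without PBS 2. The matrix count of 2 was 30 without EV200 3, 18 without PBS 1 and 0 without PBS 2, EV200 1 or EV200 2. Injury, matrix and immune counts thus depended on single libraries, while the clock and erythroid counts stayed within 1.5 times. With 3 libraries a group and such spread within groups, a gene that missed the threshold is not shown to be unchanged.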
